A study of Mus musculus with 6 samples.

Results

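Diploid cardiomyocytes (CMs) of the mouse left ventricle were compared across birth, from embryonic day 16.5 (E16.5) to postnatal day 1 (P1), by droplet-based single-cell RNA sequencing. Cells were kept as CMs when they held at least 1 unique molecular identifier (UMI, the tag of 1 captured transcript molecule) of each of 4 sarcomere genes, Tnni3, Tnnt2, Actc1 and Tnnc1. This gave 5699 of 5782 cells in the E16.5-2n library (98.6%, exact 95% binomial interval 98.2 to 98.9) and 7340 of 7469 in the P1-2n library (98.3%, 98.0 to 98.6), which is 13039 of the 30733 CMs found by the same rule in all 6 libraries. All hearts came from C57BL/6J mice without a transgene or treatment, and litters of the different ages had different parents. Left ventricular cells were dissociated, stained for viability, fixed in methanol, labelled with an antibody against MYH1 and sorted by Hoechst DNA content into 2n and 4n CMs, and each library pooled cells of 3 sorts with 1 litter per sort. The 6 libraries are E16.5, P1 and P5, each as 2n and as 4n. With 1 library per age, age, litters and library cannot be told apart, and no test of the difference between ages was possible.

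Birth moves the heart from a low-oxygen, glucose- and lactate-rich placental supply to air breathing and fat-rich milk. The mammalian heart is known to shift then from glycolysis towards the oxidation of fatty acids, which are carried into mitochondria as carnitine esters and cut into acetyl-CoA, and PPAR nuclear receptors that sense fatty acids drive many of these genes. In the same days rodent CMs exchange fetal for adult sarcomere proteins and largely stop dividing.

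The CMs of E16.5-2n held 14624533 UMIs with a median of 2240 per cell, and those of P1-2n held 16444942 with a median of 1831. The UMIs of each gene in all CMs of a library were added up and expressed per 1000000 UMIs (CPM), so that 1 UMI is worth 0.0684 CPM at E16.5 and 0.0608 CPM at P1. The ratio of P1-2n to E16.5-2n was taken for each gene with at least 100 UMIs in both libraries together, and its exact 95% interval from the binomial split of the UMIs covers counting error only. A gene was called higher or lower when it passed 2-fold, and rose and fell are used for such genes. A UMI counts a captured molecule, so CPM of different genes are set side by side without a correction for transcript length. The study counted UMIs in exons and introns. How evenly transcripts of different genes are captured and counted was not tested. CM markers outside the rule were present in both libraries, with Myl2, the ventricular myosin light chain, at 10493 CPM at E16.5 against 12524 at P1, Myl3 at 9791 CPM at E16.5 against 10730.2 at P1, Actn2 at 999 CPM at E16.5 against 969.5 at P1 and Ttn at 1341 CPM at E16.5 against 1267 at P1. Levels at E16.5, P1 and P5 are those of the 2n libraries unless 4n is named, and P5 is given as the next age of the series and was not tested against P1. Among the CMs, 61 cell barcodes occurred in both libraries.

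Of 9391 genes, 186 (1.98%) were at least 2-fold higher at P1 and 1136 (12.1%) at least 2-fold lower. These shares are the background for the counts of each list below. The middle of all genes lay below 0, with a median log2 ratio of -0.34 (-0.59 to -0.09, the medians of the genes' lower and upper bounds) and 10th and 90th percentiles of -1.09 and 0.32. Few genes moved very far, since 31 were at least 4-fold higher and 203 at least 4-fold lower, and 13 and 34 passed 8-fold. CPM share a fixed total, and the genes that gained took 176446 CPM together, of which the 13 genes of the mitochondrial genome took 79871 (45.3%). When the ratios were centred on their median instead, 363 genes were at least 2-fold above it and 583 below it. Higher genes then made up 38.4% of the calls in place of 14.1%. Centring raised every log2 ratio by the same amount, so that the 186 higher genes kept their call by construction. Log2 ratios below are CPM ratios, and subtracting -0.34 gives a gene's place relative to the middle of all genes.

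**Figure D1:**
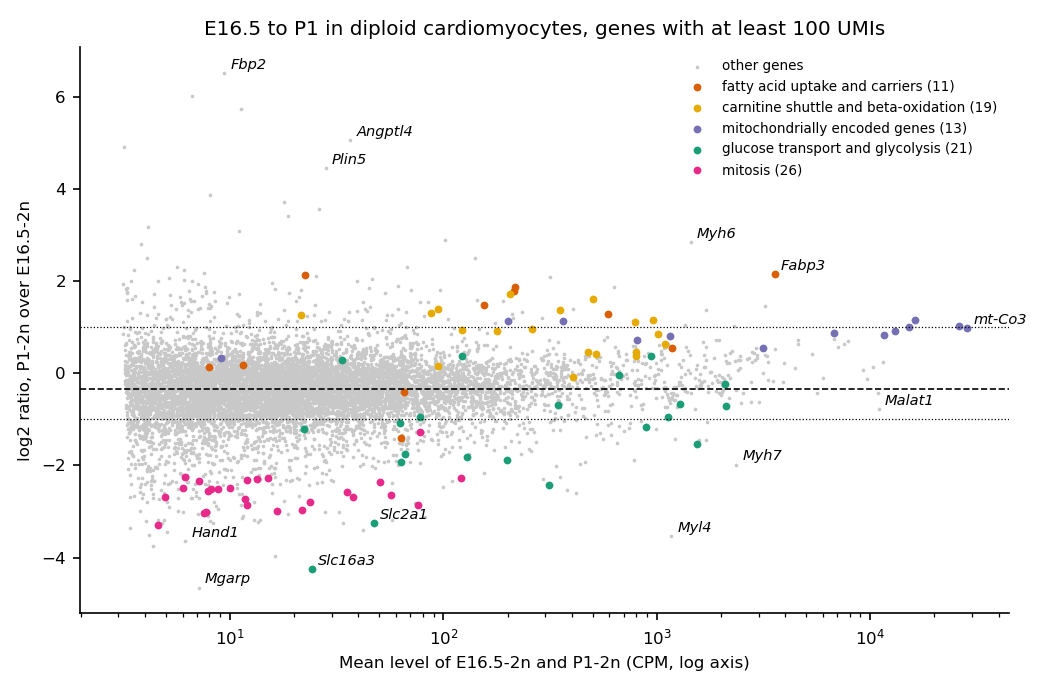
Log2 CPM ratio of P1-2n over E16.5-2n (y axis) against the mean CPM of both libraries (x axis, log scale), with each point 1 gene, the dashed line at the median of all genes (-0.34) and dotted lines at 2-fold. The mitosis genes lie below the lower line, and most genes of fatty acid uptake and beta-oxidation lie above 0. Most mitochondrially encoded genes lie near 2-fold at the right, with mt-Nd6 apart at a low level.

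Fbp2 and Ucp3 were the tested genes with no UMI at all in E16.5-2n, and they had 2 and 1 UMIs in E16.5-4n. Fbp2, the muscle form of a gluconeogenic bisphosphatase (ENSMUSG00000021456, chromosome 13, 62836877 to 62858422 of GRCm38, minus strand), had 0 UMIs at E16.5 and 310 at P1, and stood at 28.8 CPM at P5. Against the floor of 3 UMIs that a count of 0 allows, this is at least 91.9-fold higher, and the exact interval of the counts themselves starts at 74.3-fold. Ucp3, a mitochondrial carrier of muscle and a PPAR target (chromosome 7, 100472990 to 100486432, plus strand), went from 0 to 218 UMIs, at least 64.6-fold higher with an exact interval that starts at 52.1-fold, and its level at P5 was 4.8 CPM against 13.3 at P1. The neighbouring Ucp2 rose too, from 4.1 to 48.3 CPM (11.8-fold). Slc25a34, a mitochondrial carrier of unassigned substrate, had 6 UMIs at E16.5 and 362 at P1, or 0.41 CPM at E16.5 against 22 at P1, a log2 ratio of 5.75 (4.61 to 7.2). Among the 15 genes of largest ratio were also the antisense transcript Gm10603 (3 and 102 UMIs), Scgb1c1 (1.03 and 15 CPM), Paqr9 (2.53 and 33.2 CPM), the stearoyl-CoA desaturase Scd4 (3.21 and 34.2 CPM) and the stress-induced Nupr1 (0.821 and 7.42 CPM). Gm10603 overlaps Ucp3 on the opposite strand. The study counted UMIs by strand, and how fully this parted the transcripts was not tested. Paqr9 and Scd4 were higher still at P5, at 55.3 and 57.6 CPM, whereas Nupr1 stood at 0.558 CPM there.

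**Figure D2:**
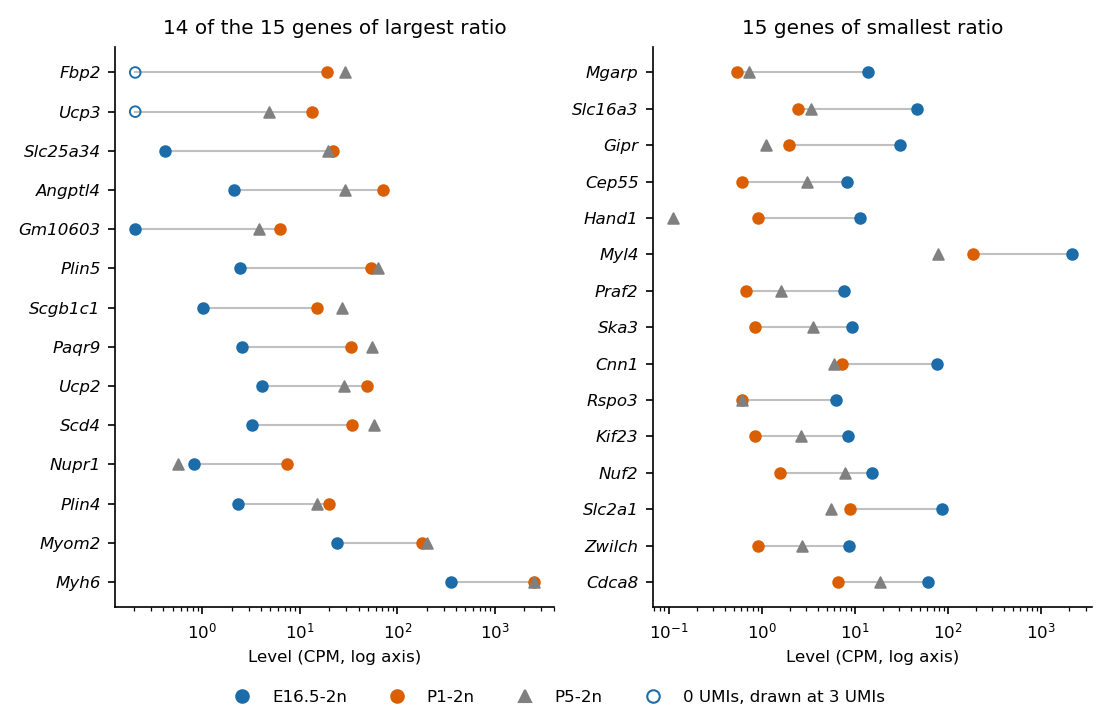
CPM (x axis, log scale) of 14 of the 15 genes with the largest and the 15 with the smallest ratio of P1-2n over E16.5-2n, with E16.5-2n as blue circles, P1-2n as orange circles and P5-2n as grey triangles, and open circles for 0 UMIs drawn at the floor of 3. Slc25a34 runs from 0.41 to 22 CPM, and Fbp2, Paqr9 and Scd4 are higher at P5 than at P1.

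At the other end of the comparison, the smallest ratio was that of Mgarp, which encodes a mitochondrial protein (chromosome 3, 51388412 to 51396738, minus strand), with 201 UMIs at E16.5 and 9 at P1. It was at 13.7 CPM at E16.5, 0.547 at P1 and 0.725 at P5, which is 25.1-fold lower at P1. Gipr, the receptor of the gut hormone GIP, was at 30.5 CPM at E16.5, 1.95 at P1 and 1.12 at P5, Cnn1, the calponin of smooth and fetal heart muscle, at 76.4 CPM at E16.5, 7.24 at P1 and 5.97 at P5, and Rspo3, a secreted enhancer of Wnt signals, at 6.22 CPM at E16.5 against 0.608 at P1. All of these were as low or nearly as low at P5, with Rspo3 at 0.614 CPM. Apart from Praf2, the other genes of smallest ratio belonged to the lists described below or to cell division.

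In amount rather than ratio, the comparison was set by few genes. The 10 genes of largest gain took 50.4% of all CPM gained, and they were mt-Co3, mt-Atp6, mt-Co1, mt-Nd1, mt-Co2, mt-Cytb, mt-Nd4, Fabp3, Slc25a4, the mitochondrial ADP/ATP exchanger, and Tnni3. The 10 of largest loss gave only 12.8% of all CPM lost. They were the noncoding RNA Malat1, the sarcomere genes Actc1, Myh7, Myl4 and Tnni1, Hbb-bs, Ldha, Ankrd1, the translation factor Eef1a1 (3673 and 2381 CPM) and Tmsb4x, which binds actin monomers (2312 and 1117 CPM). The gain was thus held by fewer genes than the loss.

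Genes that bring fatty acids into the cell rose as a group. Of 11 such genes, 6 rose and 1 fell, with a median log2 ratio of 1.28 (1.23 to 1.32), against 1.98% and 12.1% of all genes. Their summed level was 3085 CPM at E16.5 against 9118 at P1. Fabp3, the heart's main fatty acid binding protein, was the largest member of this sum, at 1316 CPM at E16.5, 5820.3 at P1 and 6575 at P5. Lpl, the lipase that frees fatty acids from lipoproteins at the vessel wall, was at 346 CPM at E16.5, 838 at P1 and 878 at P5 (log2 ratio 1.28, 1.23 to 1.32). Cd36, the membrane fatty acid translocase, was at 96.4 CPM at E16.5, 334 at P1 and 297 at P5 (log2 ratio 1.79, 1.71 to 1.88). All of these were high at P1 already, and their levels at P5 were near those of P1. Slc27a1, a fatty acid transport protein, and Acsl1, which activates fatty acids to acyl-CoA in the heart, had log2 ratios of 2.13 (1.85 to 2.42) and 1.87 (1.79 to 1.96). The other acyl-CoA synthetases did not rise, Acsl4 with 0.18 and Acsl3 with -0.41. Fatty acid binding proteins were not alike. Fabp5, the epidermal form, fell, at 91.6 CPM at E16.5 against 34.4 at P1 (log2 ratio -1.41, -1.56 to -1.27), while Fabp4, the fat cell form that endothelial cells also express, was at 82.1 CPM at E16.5 against 229 at P1.

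Behind the uptake genes, the carnitine shuttle and the enzymes of beta-oxidation were higher in nearly every case. Of 19 tested genes 8 rose and none fell, 18 had an interval above 0, and the median log2 ratio was 0.93 (0.85 to 1.02). The sum of the list was 6413 CPM at E16.5 against 11109.6 at P1. At the shuttle, Cpt1a, the liver form of the outer membrane carnitine palmitoyltransferase, was at 12.7 CPM at E16.5 against 30.2 at P1, Slc25a20, the acylcarnitine translocase, at 52.5 CPM at E16.5 against 137 at P1, and Cpt2, on the inner membrane, at 50.5 CPM at E16.5 against 125 at P1. All of these passed 2-fold, with log2 ratios of 1.26 (1.01 to 1.51), 1.39 (1.27 to 1.51) and 1.31 (1.19 to 1.43). The muscle form Cpt1b had only 2 UMIs at E16.5 and 5 at P1, too few for a comparison. Why so few were counted was not tested, and its level is not set against that of Cpt1a. In the spiral itself, enzymes of long chains were among those that rose. Acadvl, the very long-chain acyl-CoA dehydrogenase, was at 246 CPM at E16.5 against 758 at P1 (log2 ratio 1.62, 1.57 to 1.68), and Hadha and Hadhb, the subunits of the trifunctional protein, rose from 195 to 509.6 CPM and from 497 to 1077 CPM. Decr1, which handles unsaturated chains, was at 95.5 CPM at E16.5 against 313 at P1. The other acyl-CoA dehydrogenases had smaller ratios, at 0.64 for Acadl, 0.47 for Acadm and 0.16 for Acads. Echs1, the enoyl-CoA hydratase, was the only member below 0, at 418 CPM at E16.5 against 395 at P1 (log2 ratio -0.08, -0.13 to -0.03). Hadha and Hadhb lie head to head with 85 bases between them, and Ech1, a further enzyme of unsaturated chains outside the list, went from 272 to 991 CPM.

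Genes that PPAR receptors switch on in fasting, among them lipid droplet proteins, had the highest median of all lists. Of 17 tested members 10 rose and none fell, with a median log2 ratio of 1.88 (1.65 to 2.07). Angptl4, a secreted inhibitor of lipoprotein lipase (chromosome 17, 33773750 to 33781830, minus strand), had 31 UMIs at E16.5 against 1170 at P1, or 2.12 CPM at E16.5, 71.1 at P1 and 29.2 at P5. It was thus 33.6-fold (23.5 to 49.6) higher in P1 cells, and the level at P5 lay between both. Plin5, the perilipin of oxidative muscle that ties droplets to mitochondria, was at 2.46 CPM at E16.5, 53.7 at P1 and 63.6 at P5 (log2 ratio 4.45, 3.97 to 4.97). The neighbouring perilipin gene Plin4, 1797 bases away, was at 2.32 CPM at E16.5, 19.8 at P1 and 14.9 at P5 (log2 ratio 3.09, 2.58 to 3.64). Plin2, the perilipin found in most tissues, was at 39.9 CPM at E16.5 against 42.9 at P1, with a log2 ratio of 0.11 (-0.05 to 0.27). Pdk4, the kinase that shuts pyruvate dehydrogenase in fasting, was at 25.8 CPM at E16.5, 96.7 at P1 and 98.1 at P5, and Lipe, the hormone-sensitive lipase, at 3.28 CPM at E16.5, 12 at P1 and 7.75 at P5. The acyl-CoA thioesterases Acot1 and Acot2 rose from 42 to 238 CPM and from 18.2 to 74.9 CPM, near-identical neighbours whose UMIs may be shared. On the side of the lipases, Pnpla2, which starts droplet breakdown, was at 35.4 CPM at E16.5 against 67.9 at P1 (log2 ratio 0.94) while its inhibitor G0s2 was at 177 CPM at E16.5 against 89.5 at P1 (log2 ratio -0.98, -1.08 to -0.89). Neither passed 2-fold, and they lay on opposite sides of 0.

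Of 12 tested genes of metabolic nuclear receptors and coactivators none passed 2-fold, where 1.98% of all genes rose and 12.1% fell. A list this short would hold few such genes at these shares. The median log2 ratio was -0.05, with a sign that turns under centring on the median, to 0.29. Of the 12 genes, 10 lay above the median of all genes. Ppara was measured with few UMIs at 3.49 CPM at E16.5 against 3.34 at P1 (log2 ratio -0.06, -0.64 to 0.52), Ppargc1a at 94.2 CPM at E16.5 against 89.5 at P1 (log2 ratio -0.07, -0.18 to 0.03) and Esrra at 108 CPM at E16.5 against 124 at P1 (log2 ratio 0.19, 0.09 to 0.29). Pparg, Thrb and Esrrb had too few UMIs to be compared. Ppargc1b had the largest ratio of the tested genes, 0.59, and Esrrg the smallest, -0.44.

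Genes that use or carry ketone bodies showed no gain among those named here. Oxct1, which starts the use of ketone bodies as fuel (log2 ratio -1.20, -1.27 to -1.14), was at 356 CPM at E16.5, 154 at P1 and 284 at P5, so that it fell at P1 and stood higher again at P5. Slc16a1, a monocarboxylate carrier that also moves ketone bodies, was at 114 CPM at E16.5 against 117 at P1, with a log2 ratio of 0.04 (-0.06 to 0.14). Acat1 had a log2 ratio of -0.11, and Bdh1 had too few UMIs for the comparison.

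Glucose uptake and glycolysis moved the opposite way. Of 21 tested genes none rose and 11 fell, with a median log2 ratio of -1.08 (-1.20 to -0.94), or -0.75 after centring on the median of all genes. The list summed to 15113 CPM at E16.5 against 9199 at P1. The ends of the pathway fell most. Slc16a3, the carrier that exports lactate (chromosome 11, 120948480 to 120960868, plus strand), had 674 UMIs at E16.5 and 40 at P1, and was at 46.1 CPM at E16.5, 2.43 at P1 and 3.4 at P5, which is 18.9-fold lower at P1. Slc2a1, the fetal glucose transporter, was at 85.4 CPM at E16.5, 8.94 at P1 and 5.58 at P5 (log2 ratio -3.26, -3.51 to -3.01). The muscle transporter Slc2a4 was not lower, at 30.1 CPM at E16.5, 37 at P1 and 49.9 at P5 (log2 ratio 0.30, 0.12 to 0.48). Enolase, phosphoglycerate mutase and phosphofructokinase showed the same contrast between a muscle form and its counterpart. Eno1 was at 312 CPM at E16.5 against 84.1 at P1 and the muscle enolase Eno3 at 814 CPM at E16.5, 1060.4 at P1 and 1319.6 at P5. Pgam1 was at 527 CPM at E16.5 against 97.7 at P1 and the muscle mutase Pgam2 at 671 CPM at E16.5 against 653 at P1, and their log2 ratios were -2.43 (-2.51 to -2.35) and -0.04 (-0.08 to 0.00). Of the phosphofructokinases, Pfkp and Pfkl fell with -1.82 and -1.76, whereas the muscle form Pfkm had 0.39 (0.29 to 0.48). Ldha, which makes lactate, was at 2305 CPM at E16.5, 797 at P1 and 1066 at P5, and the heart form Ldhb had a log2 ratio of -0.23. Aldolase did not show the contrast of muscle form and counterpart, since the muscle form Aldoa and the brain form Aldoc had -0.67 and -1.21. Ldha and Ldhb, and the enzymes named next, are not counted as showing it. Hk2, Pgk1 and Pkm had -1.08, -1.92 and -1.16.

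Genes of the hypoxia response, which low oxygen induces through HIF, overlapped this list and fell with it. Of 18 tested genes 11 fell and none rose, with a median log2 ratio of -1.26, or -0.93 after centring, and 4 of the list (Slc2a1, Ldha, Pgk1 and Aldoa) are also counted above. Outside the shared genes, Ndrg1 was at 33.2 CPM at E16.5 against 4.01 at P1 (log2 ratio -3.05, -3.44 to -2.68), Ndufa4l2, which lowers complex I activity in hypoxia, at 14.6 CPM at E16.5 against 2.86 at P1, the collagen hydroxylase P4ha1 at 25 CPM at E16.5 against 6.2 at P1, and Bnip3, a mitophagy receptor, at 174 CPM at E16.5 against 72.8 at P1. Egln3, a HIF hydroxylase and HIF target, had -1.62. The fall was not shared by the whole list. Egln1, the main HIF hydroxylase, was at 58.7 CPM at E16.5 against 61 at P1 (log2 ratio 0.05, -0.08 to 0.19), and Vegfa, the vessel growth factor, had a log2 ratio of -0.43.

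The promoters of genes that fell are shown where their letters bear on these lists. RefSeq promoters (250 bases before to 50 after the start, GRCm38.p6) were found for 7550 of the 9391 genes (80.4%) and searched on both strands for 5 motifs. ACGTG, the core of the HIF binding site, occurred in 12 of 16 hypoxia promoters (75.0%) and in 9 of 20 glycolysis promoters (45.0%), against 27.8% of all genes tested. It was also in 7 of 12 clock gene promoters (58.3%) and in 7 of 14 of glucocorticoid response genes (50%), lists with none and 1 gene lower. Of the promoters found for the 50 genes of smallest ratio, 10 of 34 (29.4%) held it. Beyond these 50 and the lists, the genes that fell were not searched as a set, and a link of the motif to the fall was not tested. The stretches before the starts of both transporters that fell most are printed with ACGTG in capitals.
Slc16a3, chr11:120949007-120949066, plus strand: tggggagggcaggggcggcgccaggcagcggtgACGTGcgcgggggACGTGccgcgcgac
Slc2a1, chr4:119108685-119108744, plus strand: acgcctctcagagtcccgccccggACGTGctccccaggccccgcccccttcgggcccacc
Slc16a3 holds ACGTG in tandem, and Slc2a1 once in this stretch. A match is a description of the letters and not a bound site. AAGGTCA, a core of the sites of PPAR and related receptors, was in 1 of 16 beta-oxidation promoters and in 0 of 15 promoters of the PPAR target list, against 2.98% of all genes, and these windows leave out introns and distant sites.

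Between glycolysis and the respiratory chain, the list of pyruvate entry and the TCA cycle had a median log2 ratio of 0.01. The sign of this median turned when cells were thinned or weighted equally. None of 25 genes passed 2-fold, where 1.98% of all genes rose and 12.1% fell. After centring the list median was 0.34, and 24 of the 25 genes lay above the median of all genes. In CPM the members went both ways. Mpc2, a subunit of the mitochondrial pyruvate carrier, was at 617 CPM at E16.5, 928 at P1 and 1107 at P5 and Ogdh, of the oxoglutarate dehydrogenase complex, at 126 CPM at E16.5, 192 at P1 and 304 at P5, while Idh2 was at 2883 CPM at E16.5, 2160.4 at P1 and 1562 at P5. The common nuclear-encoded subunits of the respiratory chain were higher by a small and even amount. None of 34 passed 2-fold, 30 had an interval above 0, and the median log2 ratio was 0.40 (0.39 to 0.42). Together they held 7.25% of all UMIs at E16.5, 9.5% at P1 and 10.3% at P5. Cox4i1 was at 5876 CPM at E16.5 against 9173 at P1 (log2 ratio 0.64), and Atp5b, of the ATP synthase, was an exception with -0.09.

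Cytochrome c oxidase has subunits with a heart and muscle form and a form of other tissues, and the forms parted. Cox8b, a muscle form, was at 882 CPM at E16.5, 1817 at P1 and 2234 at P5, and its counterpart Cox8a at 2644 CPM at E16.5, 2064 at P1 and 1576 at P5. Cox6a2, a muscle form, was at 1509 CPM at E16.5, 3091 at P1 and 3398 at P5, and Cox6a1 at 1652 CPM at E16.5, 1494 at P1 and 1214 at P5. The log2 ratios were 1.04 (1.01 to 1.07) and -0.36 (-0.38 to -0.34) for the first pair and 1.03 (1.01 to 1.06) and -0.15 (-0.17 to -0.12) for the other, so that Cox6a2 went from below its counterpart to above it. Cox7a1 and Cox7a2 did not part in this way, with 0.37 and 0.29.

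The 13 protein genes of the mitochondrial genome held 8.28% of all UMIs at E16.5, 16.3% at P1 and 17.7% at P5. The gain was seen across the cells, whose median share was 8.21% at E16.5 (5.69 to 11.5 from the 10th to the 90th percentile) and 16.5% at P1 (11.7 to 22.3). Of the 13 genes 5 rose and none fell, with a median log2 ratio of 0.92 (0.91 to 0.93). mt-Co1, a catalytic subunit of cytochrome c oxidase, was at 9944 CPM at E16.5, 22324 at P1 and 30300.2 at P5, and mt-Co3 at 19072 CPM at E16.5 against 37689 at P1. mt-Nd6, the only one of them coded on the other strand, was at 8.07 CPM at E16.5 against 10.1 at P1 (log2 ratio 0.32, -0.03 to 0.68). The share of mitochondrial UMIs also reflects how intact the cells are, and its part in the result was not tested. Of the genes that buffer and move energy, Mb, the oxygen-storing myoglobin, was at 1699.9 CPM at E16.5, 4701 at P1 and 6353 at P5 (log2 ratio 1.47, 1.45 to 1.49), and Ckmt2, the muscle mitochondrial creatine kinase, at 133 CPM at E16.5, 336 at P1 and 739 at P5 (log2 ratio 1.34, 1.26 to 1.41). Ckb, the brain-type creatine kinase, fell, at 401 CPM at E16.5, 142 at P1 and 197 at P5 (log2 ratio -1.50, -1.57 to -1.43), and Ckm, the cytosolic muscle form, had -0.17.

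The sarcomere list held both large gains and large losses. Of 25 tested genes 2 rose and 9 fell, with a median log2 ratio of -0.13 whose sign turns under centring on the median. Of the heavy chains, Myh6, the fast adult form of the mouse ventricle (chromosome 14, 54941921 to 54966927), was at 352 CPM at E16.5, 2528 at P1 and 2511 at P5, and Myh7, the slow fetal form that lies next to it (chromosome 14, 54970684 to 54994626), at 3765 CPM at E16.5, 955 at P1 and 183 at P5. Myh6 rose 7.18-fold and Myh7 had a log2 ratio of -1.98 (-2.01 to -1.95), so that their order was exchanged between the libraries. Myom2, a protein of the M-band, was at 24.1 CPM at E16.5, 179 at P1 and 202 at P5 (log2 ratio 2.89, 2.73 to 3.06). The troponin I genes were less far apart, with the adult Tnni3, one of the genes used to choose the cells, at 5018 CPM at E16.5, 8451 at P1 and 8749.9 at P5 and the fetal Tnni1 at 6502 CPM at E16.5, 4813 at P1 and 2816 at P5.

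The losses of the sarcomere list were largest in the atrial light chains, which fetal ventricles also express. Myl4 (chromosome 11, 104550663 to 104595753, plus strand) was at 2149.6 CPM at E16.5, 185 at P1 and 77.4 at P5, which is 11.6-fold lower at P1. Myl7 was at 719.5 CPM at E16.5, 118 at P1 and 111 at P5 (log2 ratio -2.60, -2.67 to -2.53), and Sln, the atrial inhibitor of the calcium pump, at 24.5 CPM at E16.5, 2.61 at P1 and 12.7 at P5 (log2 ratio -3.23, -3.72 to -2.77). These 3 are the atrial markers with enough UMIs to be compared, and a smaller share of atrial cells and less RNA per ventricular cell cannot be told apart from the sums alone. The isoforms Tnnt1, Tpm2, Acta1 and Acta2, of slow, smooth or fetal muscle, fell with log2 ratios of -1.61, -1.21, -1.28 and -1.43. Load-responsive genes were not alike. Nppb, the B-type natriuretic peptide, was at 493 CPM at E16.5, 209 at P1 and 430.3 at P5, and Ankrd1, a stretch-induced titin partner, at 2298 CPM at E16.5, 849 at P1 and 1887 at P5. Both fell at P1 and stood higher again at P5. Nppa, the atrial peptide, was at 2071 CPM at E16.5, 1959 at P1 and 973 at P5, with a log2 ratio of -0.08 whose sign turns under centring.

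In calcium cycling, Atp2a2, the pump that refills the sarcoplasmic reticulum, was at 947 CPM at E16.5, 2449 at P1 and 2574 at P5 (log2 ratio 1.37, 1.34 to 1.40), and Ryr2, the release channel, at 175 CPM at E16.5, 405 at P1 and 329 at P5 (log2 ratio 1.21, 1.14 to 1.27). Slc8a1, the sodium-calcium exchanger of the surface membrane, went the other way, at 14 CPM at E16.5, 6.81 at P1 and 5.08 at P5 (log2 ratio -1.04, -1.39 to -0.70). Pln, the inhibitor of the pump in ventricles, had a log2 ratio of 0.73, and Casq1, the skeletal muscle calsequestrin, fell from 36.7 to 10.9 CPM. Of 14 genes 2 rose and 3 fell, Sln among the latter, against 1.98% and 12.1% of all genes. Among ion channel genes, Kcnip2, a subunit of the channels of early repolarization, was at 25.8 CPM at E16.5, 57.3 at P1 and 46.7 at P5 (log2 ratio 1.15, 0.98 to 1.33).

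Every gene of the cell division lists fell. All 26 mitosis genes were at least 2-fold lower, with a median log2 ratio of -2.55 (-3.03 to -2.17), and all 22 genes of DNA replication, with a median of -1.84 (-2.08 to -1.59), against 12.1% of all genes tested. The mitosis list summed to 1107 CPM at E16.5 against 214 at P1. Its ratios ran from -1.27 for Cenpa, the centromere histone, to -3.29 for Kif23, a motor of cytokinesis. Mki67, the proliferation marker, was at 22.2 CPM at E16.5, 4.5 at P1 and 14.7 at P5, Cdk1, the mitotic kinase, at 84.7 CPM at E16.5, 16.4 at P1 and 50.5 at P5, and Cdc20, which starts the exit from mitosis, at 41.6 CPM at E16.5, 6.02 at P1 and 15.3 at P5. Their log2 ratios were -2.30 (-2.68 to -1.93), -2.37 (-2.56 to -2.18) and -2.79 (-3.11 to -2.48), and all had a level at P5 between those of E16.5 and P1. Other mitosis genes among the 15 smallest ratios of the whole comparison were Cdca8 (61.5 and 6.51 CPM) and, outside the list, Cep55, Ska3, Nuf2 and Zwilch, from 9.52-fold to 13.4-fold lower.

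In the replication list, log2 ratios ran from -1.03 for Dut to -2.67 for Cdc6, which loads the replicative helicase. Rrm2, a subunit of ribonucleotide reductase, was at 182 CPM at E16.5, 36.4 at P1 and 117 at P5, and Pcna, the sliding clamp, at 77.6 CPM at E16.5, 27.5 at P1 and 72.7 at P5. Mcm2, of the helicase, was at 50.7 CPM at E16.5, 17.3 at P1 and 54.2 at P5. At P5, Pcna and Mcm2 were close to their levels at E16.5. Of 18 cyclins and inhibitors 9 fell and none rose. The cyclins E of S phase entry fell, Ccne2 at 22.6 CPM at E16.5, 4.86 at P1 and 25.1 at P5, while the D cyclins were not alike, with log2 ratios of -0.51 for Ccnd1, -0.28 for Ccnd2 and -1.39 for Ccnd3. Inhibitors of the cycle fell as well. Cdkn1c, the imprinted inhibitor p57, was at 103 CPM at E16.5, 11.4 at P1 and 4.3 at P5 (log2 ratio -3.18, -3.41 to -2.96), and Cdkn1a, p21, at 48.2 CPM at E16.5, 18.4 at P1 and 32.4 at P5 (log2 ratio -1.39, -1.59 to -1.20).

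The fall held in cell counts. With each CM thinned to 1000 UMIs, 19.5% (18.5 to 20.6) of CMs at E16.5 against 2.77% (2.39 to 3.19) at P1 had at least 2 UMIs of the mitosis list, and 7.19% and 0.753% had at least 5. The 2n gate on DNA content is meant to keep out cells that have copied their DNA, and its part in these levels was not tested.

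Promoters of the mitosis genes share letters that those of all genes hold less often. CCAAT, the box bound by NF-Y, was in 20 of 23 mitosis promoters (87.0%) against 39.4% of all genes tested, and TTTGAA, the core of the cell cycle homology region, in 17 (73.9%) against 11.5%. CCAAT was also in 9 of 12 clock gene promoters (75%) and in 7 of 10 of cardiac transcription factors (70%). These lists had 0 and 1 gene lower, and 0 and 1 of these promoters held TTTGAA. A link of the motifs to the fall was not tested. Of the 20 replication promoters found, 11 held CCAAT (55.0%), 3 TTTGAA (15%) and 7 (35.0%) GCGGGAA, a form of the E2F site, which 9.31% of all promoters and 0 of the 23 mitosis promoters held. None of these motifs contains another. For 3 mitosis genes the stretch that ends 1 base before the start is printed with CCAAT and TTTGAA, on either strand, in capitals.
Cdk1, chr10:69352913-69353002, minus strand: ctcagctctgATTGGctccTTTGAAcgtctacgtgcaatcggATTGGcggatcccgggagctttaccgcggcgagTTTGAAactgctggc
Top2a, chr11:99024190-99024299, minus strand: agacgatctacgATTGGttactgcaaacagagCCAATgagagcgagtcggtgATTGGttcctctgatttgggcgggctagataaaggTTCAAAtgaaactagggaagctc
Cdc20, chr4:118437344-118437403, minus strand: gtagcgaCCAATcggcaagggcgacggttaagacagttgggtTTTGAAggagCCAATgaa
All 3 hold CCAAT more than once and a TTTGAA close to the start, at -15 in Cdk1, -23 in Top2a and -18 in Cdc20, counted to the first base of the motif. Top2a, the topoisomerase that untangles chromosomes, was itself at 60.8 CPM at E16.5, 10.3 at P1 and 39.3 at P5.

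Genes of fetal growth were lower. Of 14 tested imprinted genes 7 fell and none rose, with a median log2 ratio of -0.87. H19, a maternally expressed noncoding RNA, was at 647 CPM at E16.5, 111 at P1 and 44.7 at P5, Mest at 579 CPM at E16.5, 122 at P1 and 40.6 at P5, and Igf2, the fetal growth factor encoded beside H19, at 341 CPM at E16.5, 164.8 at P1 and 91.9 at P5. All were lower again at P5. Meg3 and Ndn fell with log2 ratios of -1.77 and -1.89, and Igf2r and Grb10, which restrain growth signals, had -0.70 and -0.69. Of 19 tested fetal RNA-binding, HMG and cytoskeletal genes 14 fell and none rose. Gpc3, a growth-restraining glypican, was at 146 CPM at E16.5, 16.9 at P1 and 4.13 at P5, and Igf2bp1, which binds the Igf2 message, at 13.3 CPM at E16.5, 2.98 at P1 and 0.669 at P5. Their log2 ratios were -3.11 (-3.30 to -2.93) and -2.15 (-2.64 to -1.70). The tubulin genes Tuba1a and Tubb5 and the chromatin protein gene Hmgb2 fell with -2.29, -1.88 and -2.02. Sox4 was the only member with an interval above 0, at 101 CPM at E16.5 against 154 at P1 (log2 ratio 0.61).

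Of 14 cardiac transcription factor genes 1 fell and none rose, against 12.1% and 1.98% of all genes. Their median log2 ratio was -0.21, where that of all genes was -0.34. The gene that fell was Hand1, a factor of the early left ventricle (chromosome 11, 57828705 to 57832818, minus strand), at 11.4 CPM at E16.5, 0.912 at P1 and 0.112 at P5, which is 12.5-fold lower at P1. Nkx2-5, Gata4, Mef2c and Mef2a had log2 ratios of -0.61, -0.50, -0.91 and 0.00. The study took up 11 transcription factors, mainly from its 4n libraries at E16.5 and P5. Of these 2 fell and none rose, against 12.1% and 1.98% of all genes. The list is thus not independent of this series, though it was not chosen on the E16.5-2n and P1-2n libraries. Mycn, which drives embryonic CM growth, was at 31.4 CPM at E16.5, 4.62 at P1 and 4.41 at P5 (log2 ratio -2.76, -3.13 to -2.41), E2f1, of the G1 to S step, at 20.3 CPM at E16.5, 7.36 at P1 and 32.1 at P5 (log2 ratio -1.46, -1.78 to -1.16), and Zeb1 at 18.4 CPM at E16.5, 14.7 at P1 and 14.7 at P5 (log2 ratio -0.33, -0.58 to -0.07). The ratio of Zeb1 lay close to the median of all genes, -0.34. E2f1 stood higher at P5 than at E16.5, Mycn did not. In the list of the Hippo pathway and of neuregulin and IGF receptors, 2 of 17 fell, against 12.1% of all genes, and none rose. Igfbp2 was at 10.7 CPM at E16.5, 1.34 at P1 and 0.223 at P5 and Ctgf, a target of the pathway, at 57.2 CPM at E16.5, 20.9 at P1 and 54.6 at P5, while Yap1, Erbb2 and Insr had log2 ratios of -0.26, -0.90 and 0.51.

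In the hormone, clock and stress lists few genes were past 2-fold in the higher direction, which holds for all genes too (1.98% higher, 12.1% lower). Klf9, a direct target of the glucocorticoid receptor, was at 7.18 CPM at E16.5, 20.5 at P1 and 12.2 at P5 (log2 ratio 1.51, 1.19 to 1.84), but other targets, Fkbp5, Per1 and Tsc22d3, had -0.50, -0.59 and -0.64, and of 14 tested 1 rose and 1 fell. Of the clock genes, Per3 was at 4.99 CPM at E16.5, 14.3 at P1 and 6.42 at P5 (log2 ratio 1.52, 1.13 to 1.92) and was the only one of 14 past 2-fold. Dbp, an output of the clock, was at 16.8 CPM at E16.5, 32.9 at P1 and 19.7 at P5, and Arntl, which activates both, at 5.2 CPM at E16.5, 2.74 at P1 and 1.45 at P5 (log2 ratio -0.93, -1.49 to -0.37). Of the immediate early and heat shock genes, which dissociation of tissue can induce, 8 of 22 fell and none rose. Atf3 was at 253 CPM at E16.5, 56.6 at P1 and 22.5 at P5, and Junb, Ier2 and Hsp90aa1 had log2 ratios of -1.21, -1.45 and -1.09. Fos had -0.40 here and 0.32 in the 4n libraries.

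Antioxidant genes held 1 that rose and 1 that fell among 20. Of all genes 1.98% rose and 12.1% fell, the shares to set beside each count of this paragraph. Sod1, the cytosolic superoxide dismutase, was at 111 CPM at E16.5, 236 at P1 and 203 at P5 (log2 ratio 1.09, 1.01 to 1.17), and Gpx3, the secreted glutathione peroxidase, at 111 CPM at E16.5, 29.2 at P1 and 21.5 at P5 (log2 ratio -1.92, -2.07 to -1.77). Catalase, encoded by Cat, had 0.97. Genes of the amino acid response and serine synthesis were divided, with 2 of 15 tested higher and 3 lower. Trib3 was at 2.74 CPM at E16.5, 12.4 at P1 and 0.335 at P5 and Asns, the asparagine synthetase, at 7.11 CPM at E16.5, 25.3 at P1 and 1.95 at P5, with log2 ratios of 2.18 (1.69 to 2.71) and 1.83 (1.52 to 2.15). Both were highest at P1 among these 3 ages. Psat1, a step of serine synthesis, fell from 34.5 to 10.8 CPM, and Atf4, the factor that drives the response, had -0.91. None of 17 autophagy and proteolysis genes and none of 5 tested interferon and antigen presentation genes passed 2-fold. Of 83 ribosomal protein genes, Rpl3l, the muscle form of Rpl3, was the only one to rise, at 3.15 CPM at E16.5, 9.06 at P1 and 12.5 at P5 (log2 ratio 1.53, 1.04 to 2.04). The nuclear noncoding RNAs went apart, with Malat1 at 13818 CPM at E16.5, 8069 at P1 and 3566 at P5 and Neat1 at 3.83 CPM at E16.5, 13 at P1 and 25.2 at P5.

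**Figure D3:**
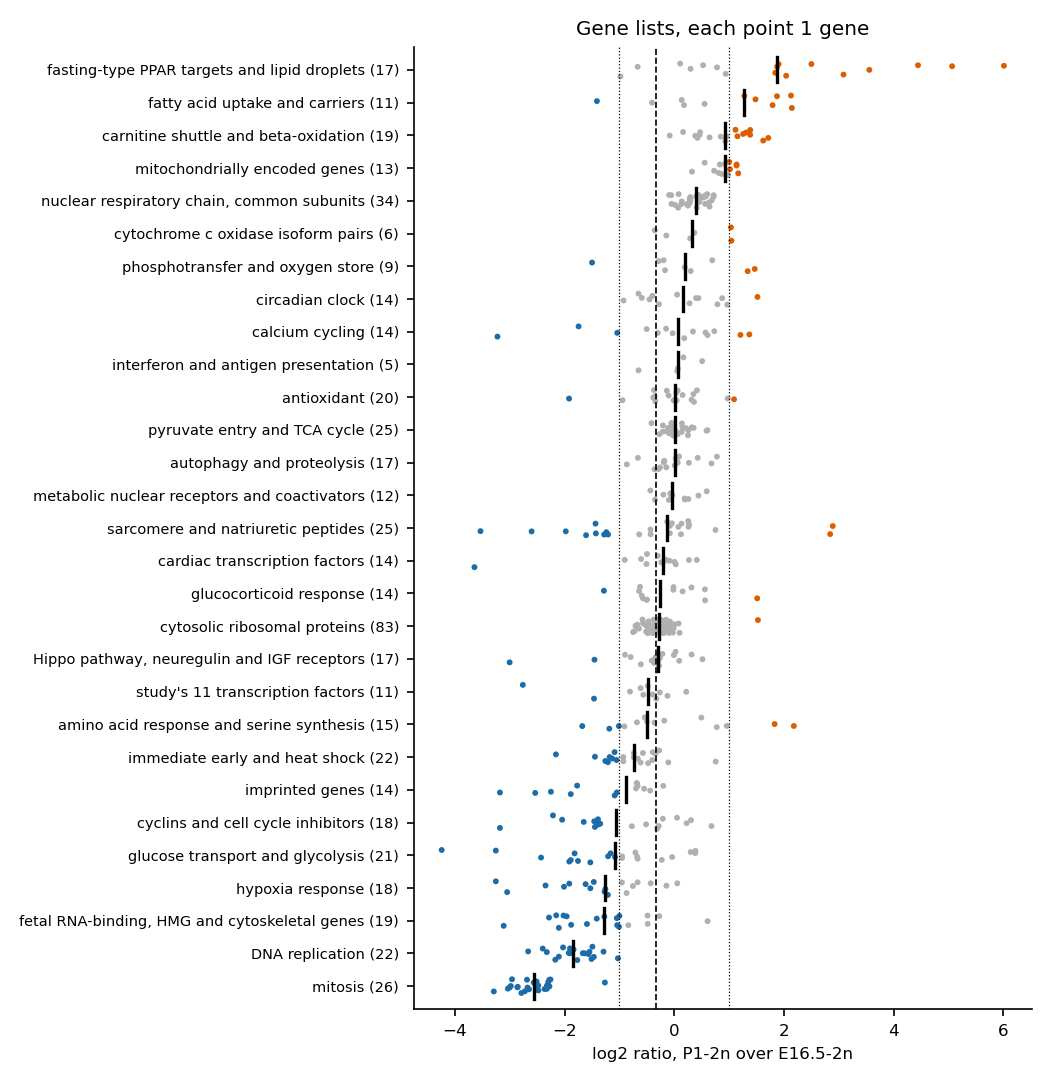
Log2 CPM ratio of P1-2n over E16.5-2n (x axis) of each tested gene in 29 lists, with each point 1 gene, black bars at the list medians, orange for genes at least 2-fold higher and blue for genes at least 2-fold lower. All points of the mitosis and DNA replication lists are blue, and the PPAR target list has the highest median, 1.88.

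Markers of other cell types moved with the comparison, and their part in it was not tested. Erythroid genes summed to 5131 CPM at E16.5 against 1896 at P1, with 4 of 5 tested lower, among them Hbb-bs at 2484 CPM at E16.5 against 906 at P1, and the near-identical globin copies may share UMIs. Mural markers summed to 43.5 CPM at E16.5 against 104 at P1, of which Abcc9, a channel subunit that CMs express too, made most with 33.7 and 89.3 CPM, while Rgs5 was at 3.9 CPM at E16.5 against 10.2 at P1 and Pdgfrb at 1.57 CPM at E16.5 against 1.64 at P1. Endothelial markers summed to 109.9 CPM at E16.5 against 257 at P1, and outside Fabp4 the defining genes were low, with Pecam1 at 2.94 and 3.77 CPM and Cdh5 at 5.4 and 6.81 CPM. Fibroblast markers summed to 133 CPM at E16.5 against 142 at P1 with none of 6 tested past 2-fold. Immune markers summed to 13.9 CPM at E16.5 against 7.24 at P1, with Ptprc at 0 UMIs in E16.5-2n, epicardial to 12.8 CPM at E16.5 against 4.32 at P1, and Schwann cell markers to 4.65 CPM at E16.5 against 2.74 at P1, with Sox10 at 0 UMIs in both. Without the CMs that held at least 3 UMIs of any 1 of the fibroblast, endothelial, mural, immune, epicardial and Schwann cell lists, which were 2.93% and 4.02% of the CMs, 178 genes were higher and 1132 lower. Sex-linked genes differed between the libraries as well. Of 4 tested, the Y-linked Uty and Ddx3y rose and 1 gene fell, against 1.98% and 12.1% of all genes. The mix of sexes in each pool cannot be told apart from age here, and its part in the calls was not tested. Xist, expressed from the inactive X of females, was at 129 CPM at E16.5, 60.7 at P1 and 108 at P5, and the Y-linked Eif2s3y at 29.9 CPM at E16.5, 49.3 at P1 and 18.6 at P5, with log2 ratios of -1.09 and 0.72.

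Whether a ratio came from many cells or from few was read from CMs thinned to 1000 UMIs each, which left 5536 at E16.5 and 6640 at P1 and left out 163 (2.86%) and 700 (9.54%) shallower ones. Free RNA can give some UMIs to cells that do not express a gene. Hbb-bs, which CMs should lack, had a UMI in 62.8% of CMs at E16.5 against 37% at P1. Whether these UMIs came from free RNA or from another source was not tested. Cd36 was detected in 9.43% (8.67 to 10.2) of CMs at E16.5 against 28.5% (27.4 to 29.6) at P1, and in 21% and 48.1% before thinning. In the cells left out by the CM rule, whose median depths were 1005 and 911 UMIs, the share with a UMI of Cd36 was 12% and 25.6% before thinning. Genes of large ratio and low level were seen in fewer cells. Angptl4 was seen in 0.145% of CMs at E16.5 against 6.55% at P1, Ucp2 in 0.379% of CMs at E16.5 against 4.98% at P1, and Fbp2 in 0 of 5536 E16.5-2n CMs, which allows a share of up to 0.0542% of cells with a UMI at this depth and limits no share of cells that express the gene, and in 1.87% of the P1-2n CMs.

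For abundant genes the whole distribution moved. Fabp3 had a median of 1 UMI per thinned cell at E16.5 and 5 at P1, and in 89.5% of all pairs of 1 cell of each age the P1 cell had more. Myh6 was detected in 26% of CMs at E16.5 against 90.4% at P1, with the P1 cell higher in 82.8% of pairs, and Myh7 in 95.7% of CMs at E16.5 against 51.5% at P1, with the P1 cell lower in 82.6%. Myl4 was seen in 65.8% of CMs at E16.5 against 10.8% at P1, and Slc2a1 in 7.51% (6.83 to 8.24) of CMs at E16.5 against 0.828% (0.625 to 1.08) at P1. Within cells, Myh7 had more UMIs than Myh6 in 91.8% of CMs at E16.5 against 15.4% at P1, and Myh6 had more in 2.29% and 70.1%. Cells with UMIs of both chains made up 24.7% at E16.5, 46.3% at P1 and 11.9% at P5. Fabp3 outnumbered Ldha in 23.6% of cells at E16.5 and 93.8% at P1, and Tnni3 outnumbered Tnni1 in 29.5% and 79.5%.

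**Figure D4:**
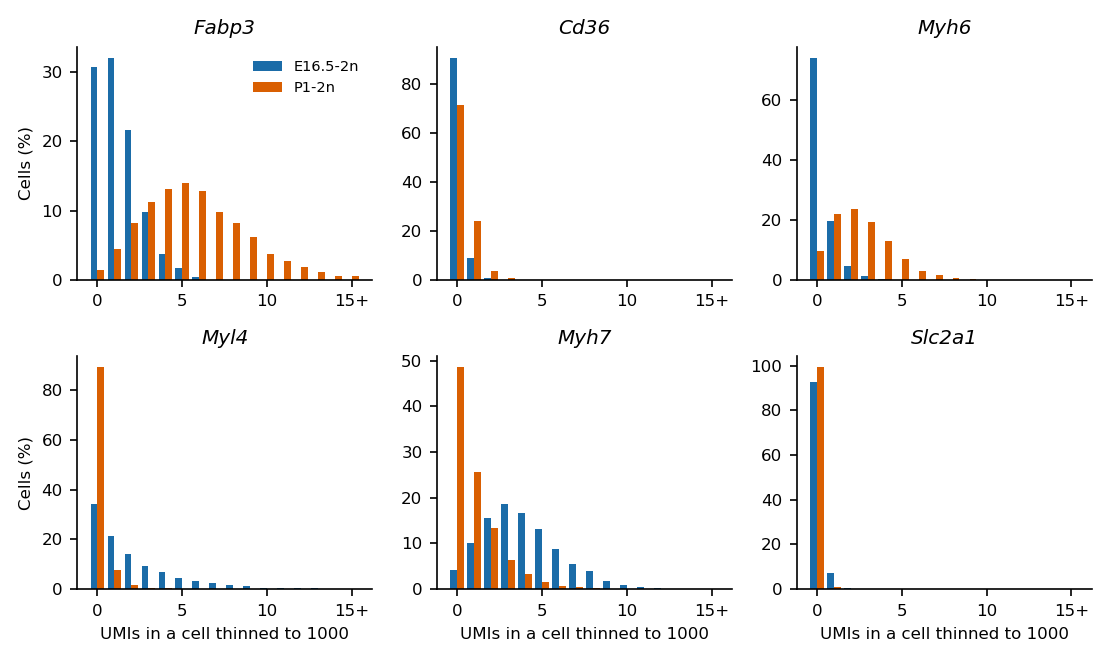
Share of CMs (y axis, percent) by UMIs per cell (x axis) of Fabp3, Cd36, Myh6, Myl4, Myh7 and Slc2a1, with every CM thinned to 1000 UMIs, for 5536 E16.5-2n and 6640 P1-2n CMs. Fabp3 and Myh6 shift to more UMIs at P1, Myh7 and Myl4 to fewer, and Cd36 is above 0 in 9.43% and 28.5% of cells.

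Spread between cells was measured as the Fano factor, the variance over the mean of UMIs per thinned cell, which is near 1 for counting noise alone and had a median of 1.02 over the genes ranked at each age. The highest value at both ages was that of Hbb-bs, with 41.7 at E16.5 against 47.6 at P1. Of the CM genes, Nppa led with 23.1 at E16.5 against 16.5 at P1, and was detected in 29% of CMs at E16.5 against 32.7% at P1, so that its like level at both ages was carried by a minority of cells. Myl4, in which few P1 cells kept UMIs, had 3.02 at E16.5 against 3.38 at P1, and Myh7 had 1.35 at E16.5 against 1.93 at P1. Myl7 and Ankrd1 were in the top 10 at both ages, and mt-Co1, with 2.13 at E16.5 against 3.9 at P1, entered it at P1. The factor can also grow with a gene's level, and mt-Co1 had a mean of 10.2 UMIs per thinned cell at E16.5 and 23.5 at P1.

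The tetraploid CMs passed through the same days in separate libraries, and the ratio P1-4n over E16.5-4n gives a comparison that shares no library with the diploid one. The 2n and 4n cells of an age came from the same sorts and litters, so that animals, dissociation and fixation were shared. Over 9315 genes with UMIs in all 4 libraries, the log2 ratios of both ploidies had a Pearson correlation of 0.89 and a Spearman correlation of 0.85, a description across genes, which are not independent replicates. Of the 9317 genes tested in both pairs, 182 were called higher in 2n and 237 in 4n. Of these 163 were shared, which is 89.6% of those of 2n and 68.8% of those of 4n. Called lower were 1117 in 2n and 1018 in 4n, of which 728 were shared, which is 65.2% and 71.5%. No gene passed 2-fold in opposite directions. Among the metabolic genes, Fabp3 had log2 ratios of 2.15 in 2n and 2.30 in 4n, and Asns 1.83 and 1.83.

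Of these 9315 genes, 2360 had a difference of log2 ratios, 2n minus 4n, whose interval excludes 0, and 113 of them differed by at least 2-fold, though with 1 library per arm such a difference is one between these 4 libraries. On the side where 2n was above 4n, Rpgrip1 was in 2n at 11.1 CPM at E16.5 against 6.75 at P1 and in 4n at 57.3 CPM in E16.5-4n against 7.22 in P1-4n, a difference of log2 ratios of 2.26 (1.83 to 2.70). Kpna2, a nuclear import factor of cycling cells, had 1.40 (1.08 to 1.72). On the side where 2n was below 4n, Praf2 was at 7.66 CPM at E16.5 against 0.669 at P1 and had a difference of -2.14 (-3.15 to -1.13), and Tagln, an actin-binding protein of smooth and fetal heart muscle, was in 2n at 28.8 CPM at E16.5 against 5.47 at P1 and in 4n at 21.8 CPM in E16.5-4n against 14.1 in P1-4n, a difference of -1.77 (-2.18 to -1.36). Fibroblast markers summed to 133 CPM at E16.5 and 142 at P1 in 2n against 796 and 947 in 4n, and endothelial markers to 110 and 257 against 275 and 738, and their part in these differences was not tested. The other genes of largest difference were Slc24a5, Fam72a, Neurl1b, Nupr1, Fam35a, Tbl2 and Dfna5, from 1.26 to 1.90, and Qpct, Olfml3, Pirt, Rcn3, Rasd1, Lgals4 and Rhox5, from -2.05 to -1.54. Fabp5 had log2 ratios of -1.41 in 2n and -0.59 in 4n, and Gpx3 -1.92 and -0.92.

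**Figure D5:**
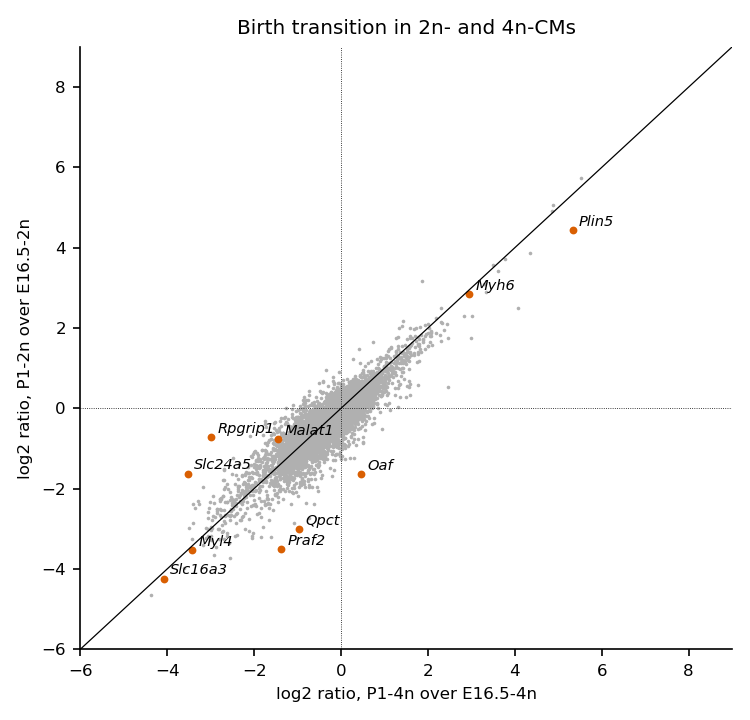
Log2 CPM ratio of P1 over E16.5 in 2n CMs (y axis) against the same ratio in 4n CMs (x axis), with each point 1 gene, the diagonal as a line and named genes labelled. Most points follow the diagonal, and Rpgrip1, Praf2 and Oaf stand off it.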

How the data were processed

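Raw UMI counts per gene and cell were deposited by the authors for each of the 6 libraries. They were made with Cell Ranger, whose version is not given in the sources used here, with STAR alignment to GRCm38 (mm10), after the authors' cell calling and with no normalization of the counts. Antibody-sorted, methanol-fixed CMs of 3 sorts were pooled before each library. The deposited table of the authors' own comparison and a background gene list were not used, and the deeper sequencing of the study was not analysed here.

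CMs were taken by the 4-marker rule, and UMIs were summed per library and scaled to CPM with Python 3.11.15, numpy 2.4.6, scipy 1.17.1 and pandas 2.3.3. Genes needed 100 UMIs in both libraries together. Intervals are exact, at the 95% level, and a count of 0 was replaced by 3 UMIs. The list interval is the range from the median of the members' lower to that of their upper bounds. Cells were thinned to 1000 UMIs with a fixed seed. No doublet caller was run. The ratio code was tested on simulated counts. Gene positions are those of GENCODE M21 on GRCm38. Symbols that stand for more than 1 gene numbered 56.

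The text names the 15 largest and smallest ratios, the 10 largest gains and losses in CPM, genes of 33 gene lists and 10 marker lists, the 10 largest differences between 2n and 4n on each side and the 10 highest Fano factors per library. The comparison, members and lists were chosen with earlier results of these data known. A few genes and the lists that rest on them are not reported here. No p-values were computed, as each condition has 1 library. Alternatives changed the CM rule, scaling, depth per cell, UMI minimum, cells left out and call rule.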

Additional observations from a re-analysis of the deposited data

Results flagged for a closer look

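Oaf, a secreted protein gene, moved in opposite directions in the ploidies. In 2n it was at 6.63 CPM at E16.5 against 2.13 at P1, with a log2 ratio of -1.64 (-2.24 to -1.07), and in 4n at 7.88 CPM in E16.5-4n against 10.8 in P1-4n, with a log2 ratio of 0.45 (0.11 to 0.81). The difference of the log2 ratios, 2n minus 4n, was -2.09 (-2.74 to -1.44). Of 9315 genes, 71 had intervals on opposite sides of 0 in both ploidies, and Oaf was the only one of them past 2-fold in either. Fibroblast markers summed to 133 CPM at E16.5 and 142 at P1 in 2n against 796 and 947 in 4n, and their part in the difference was not tested. The interval covers counting error of these 4 libraries, and the difference was not tested over replicates.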

How the results depend on the processing

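No paired analysis was possible because each age and ploidy has 1 library. The main setting gave 186 higher and 1136 lower genes and a median log2 ratio of -0.34. Scaling by the median of ratios gave 363 higher and 583 lower. By construction its median was 0 and all of its lower genes were among the 1136. With at least 500 UMIs per gene 94 were higher and 483 lower, out of fewer genes tested. Leaving the 50 most abundant genes out of the total gave 270 higher and 724 lower, thinning each cell to 1000 UMIs 126 and 742, out of 7034 genes tested in place of 9391, and asking the whole interval to pass 2-fold 125 and 639. Without the cells that held at least 2 UMIs of the mitosis list, 166 were higher and 800 lower, out of 8564 genes tested. The 6 mitosis genes still tested then had a median log2 ratio of -1.42, and the replication list had -1.44. The mitosis value is shaped by this choice of cells, made on the same list. It is not read as a fall outside dividing cells. Under the other alternatives, save the one named next, higher genes numbered 178 to 241 and lower genes 1058 to 1462. Without the 13 mitochondrially encoded genes in the total, an alternative chosen after seeing the data, 234 were higher and 863 lower, with a median of -0.20. Under the median of ratios, of 13 list medians past 2-fold those of glycolysis, hypoxia, cyclins and fetal genes dropped below it, 8 of 42 list medians changed sign, and of 53 named genes past 2-fold 49 stayed so, without Rhox5, Tmsb4x, Acta1 and Hba-a1. Fam72a, Nppa and Tbl2 changed sign. Leaving out the 5% of cells with most UMIs, where doublets would lie, gave 178 higher and 1058 lower. A gene at 100 UMIs has a wide interval, and small differences were not detectable there.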

Other observations

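Several genes that rose lie side by side on the genome, within 50000 bases of each other. Plin4, Plin5 and Lrg1 form a run on chromosome 17 with 1797 and 2081 bases between them, and Lrg1, a secreted glycoprotein gene, was at 1.91 CPM at E16.5 against 9.43 at P1. Ucp3 and Ucp2 lie 6904 bases apart on chromosome 7. Ech1 and Lgals4 are 1606 bases apart, and Slc25a34 and Plekhm2 1912. The Y-linked Uty and Ddx3y lie 15011 bases apart. Hfe2, a muscle hemojuvelin gene, and Txnip, an inhibitor of glucose uptake, lie 28746 bases apart, and Txnip was at 222 CPM at E16.5, 585 at P1 and 295 at P5, a log2 ratio of 1.40 (1.34 to 1.46). Acot1 and Acot2 lie 15616 bases apart and are near-identical copies. Nmrk2 lies within its antisense transcript Atcayos, on the opposite strand, and how fully counting by strand parted their UMIs was not tested. How often neighbours of other genes moved together was not measured.

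UMIs of the list of amino acid response and serine synthesis were spread unevenly over the P1 cells. The summed list had a mean of 0.542 UMIs per thinned CM at E16.5, 0.338 at P1 and 0.212 at P5. Its variance over the mean was 1.09, 1.52 and 1.00. The sum is not the response alone, since Psat1, of serine synthesis, was lower at P1 while Asns and Trib3 were higher. With a minimum of 3 UMIs, chosen after the values were seen, 137 CMs (2.47%) passed at E16.5, 139 (2.09%) at P1 and 8 (0.182%) at P5, and with a minimum of 5 they were 3, 18 and 0. The P1-2n cells with at least 3 had a median depth before thinning of 3929 UMIs, against 1942 in the others, while at E16.5 the medians were 2166 and 2280. Genes outside the list were ranked by their ratio of cells with at least 3 to the other cells, 593 in P1-2n and 350 in P1-4n. Those named next come from the top of these rankings. In P1-2n the log2 ratio was 2.32 (1.83 to 2.77) for Gars and 1.35 (1.06 to 1.62) for Eif2s2, with counting error only. Gars, the glycyl-tRNA synthetase, was at 309 CPM against 62.1 in the other cells, Nppb at 532 against 175, Ankrd1 at 1777 against 695, and Eif2s2, of the initiation factor that the response acts through, at 799 against 314. The P1-4n library had 71 such cells (1.5%), with Nppb at 592 against 178 CPM, Ankrd1 at 1775 against 565 and Eif2s2 at 690 against 277. Their median depth was 5851 UMIs against 3153.5. The part of depth and doublets in this was not tested. Fgf21, a secreted target of the response with too few UMIs to be compared, had 0 UMIs at E16.5 against 67 at P1.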
